A study of Rattus norvegicus and Mus musculus with 18 samples.

Results

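Chemokines are small secreted proteins that attract leukocytes, and their receptors are membrane proteins that couple to inhibitory G proteins and steer the cells that carry them along the gradient. In skin wounds they are known for drawing in neutrophils and monocytes, for guiding antigen-presenting cells to lymph vessels and for placing T cells in the epidermis. A few atypical receptors bind the same ligands and take them up without signalling through G proteins. The genes described here are 59 protein-coding mouse genes with a chemokine or chemokine receptor symbol, out of 49548 genes listed. They were chosen by name alone, as symbols of the CC and CXC ligand and receptor series together with the CX3C and XC ligands and receptors and the 4 atypical receptors. They comprise 37 ligands, 18 signalling receptors and 4 atypical receptors. One further symbol in the table, Cxcl11, was left out because GENCODE M21 lists it as a polymorphic pseudogene.

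RNA levels were compared between 3 libraries of wound epidermis and 3 libraries of wound dermis from adult mice, all collected 1 day after the scab came off. Epidermis is the outer epithelium and dermis the connective tissue beneath it, which holds fibroblasts, vessels and most leukocytes of skin. Both groups share the wound, the time and the whole-tissue preparation by SMART-seq2, a full-length cDNA method that does not mark the strand. The sources used here give no strain, sex or genotype. They also do not say whether each library is a different mouse, and the p-values therefore reflect only variation among libraries, which may be technical.

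Levels are given in TPM, a length-corrected share of transcripts, so a gene's TPM also depends on all other transcripts in its library. The number of reads behind a library is unknown. Tests were run as limma fits of log2(TPM + 1) over the 15982 genes that reached 1 TPM in 3 or more of the 6 libraries, with Benjamini-Hochberg adjusted p-values and a threshold of 0.05. A log2 fold change is epidermis minus dermis on that scale, which understates the change of low genes.

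The tissue labels were checked against marker genes. Of 12 keratinocyte markers, 10 were higher in wound epidermis and 0 lower, and all 8 fibroblast markers were lower. Over all tested genes 17.0% were higher and 39.3% lower. The fibroblast markers Lum and Pdgfra reached 1 TPM in dermis alone and so had to differ to be tested. The summed keratinocyte markers stood at 57270 to 75410 TPM in epidermis. In dermis they stood at 3905 and 599 TPM in replicates 1 and 3 and at 15840 TPM in replicate 2, so the second dermis library held far more keratinocyte RNA than the others. Summed fibroblast markers stood at 15.96 to 126 TPM in epidermis, with the highest sum in replicate 3, and at 45290 to 71070 TPM in dermis. In whole tissue, fewer cells of a type and less RNA per cell cannot be told apart.

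Chemokine names follow the spacing of the first cysteines of the mature protein, and the stretches of coding sequence below show this for the ligands on which the results turn. In CC ligands the first 2 cysteine codons are adjacent, and in CXC ligands another codon lies between them. The CXC ligands that bind CXCR2 carry codons for glutamate, leucine and arginine just before the first cysteine, and those without them act on other receptors. Each line gives 30 bases of exon 2, 5′ to 3′ on the coding strand, with the cysteine codons and, where present, the glutamate-leucine-arginine codons in capitals. They come from GENCODE M21 transcripts on mm10. The stretches lie at chr11:82046523-82046552 (plus strand) for Ccl7, chr11:82116041-82116070 (plus) for Ccl8, chr11:82036491-82036520 (plus) for Ccl2, chr4:42773726-42773755 (minus) for Ccl21a, chr5:90891481-90891510 (plus) for Cxcl1, chr5:90759712-90759741 (plus) for Cxcl5, chr6:117171493-117171522 (plus) for Cxcl12 and chr11:70459121-70459150 (minus) for Cxcl16.
Ccl7: cccaatgcatccacaTGCTGCtatgtcaag
Ccl8: aaggctccagtcaccTGCTGCtttcatgta
Ccl2: aacgccccactcaccTGCTGCtactcattc
Ccl21a: ggagggggtcaggacTGCTGCcttaagtac
Cxcl1: gccaatGAGCTGCGCTGTcagTGCctgcag
Cxcl5: gcaacgGAGCTGCGTTGTgttTGCttaacc
Cxcl12: agcctgagctaccgaTGCcccTGCcggttc
Cxcl16: agtgtcgctggaagtTGTtctTGTgatcgt

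The summed ligand transcripts stood at 112 to 329 TPM in the epidermis libraries and at 701 to 1789 TPM in the dermis libraries. Of the 59 genes, 39 passed the filter, and of these 21 were lower in epidermis, 3 were higher and 15 did not pass the test. The 3 higher genes were the receptors Cxcr2 and Ccr9 and the ligand Ccl20. Over all tested genes 56.3% were called, 39.3% lower and 17.0% higher, so the share of chemokine genes called, 61.5%, was near the background, with 53.8% lower and 7.69% higher. These counts are therefore a description and show nothing particular to the family. The groups' libraries did not overlap for 25 of the 39 genes, against 66.0% of all tested genes. A gene that reaches 1 TPM in dermis alone had to differ to be tested, and 11 of the 39 were of that kind. These were Ackr1, Ccl3, Ccl4, Ccl9, Ccl11, Ccl12, Ccl21a, Cxcl5, Cxcl12, Cxcr3 and Cxcr4. Their calls and p-values are therefore a description only. The count was 22 lower and 3 higher without wound dermis replicate 2, the library rich in keratinocyte RNA.

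The median log2 fold change of the 39 genes was -1.60, against -0.42 for all tested genes. The 11 genes that reached 1 TPM in dermis alone pull this median down by the way they were included, so it is given as a description only. TPM values are shares, and median-of-ratios scaling moved the median of all tested genes to -0.04 and quantile normalization to 0.08. Under those scalings the median of the chemokine genes was -1.27 and -0.90. All 24 called genes kept their direction under both. Ligands had a median of -2.32 over 24 tested genes, signalling receptors -1.01 over 12, and the 3 tested atypical receptors -0.72.

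**Figure D1:**
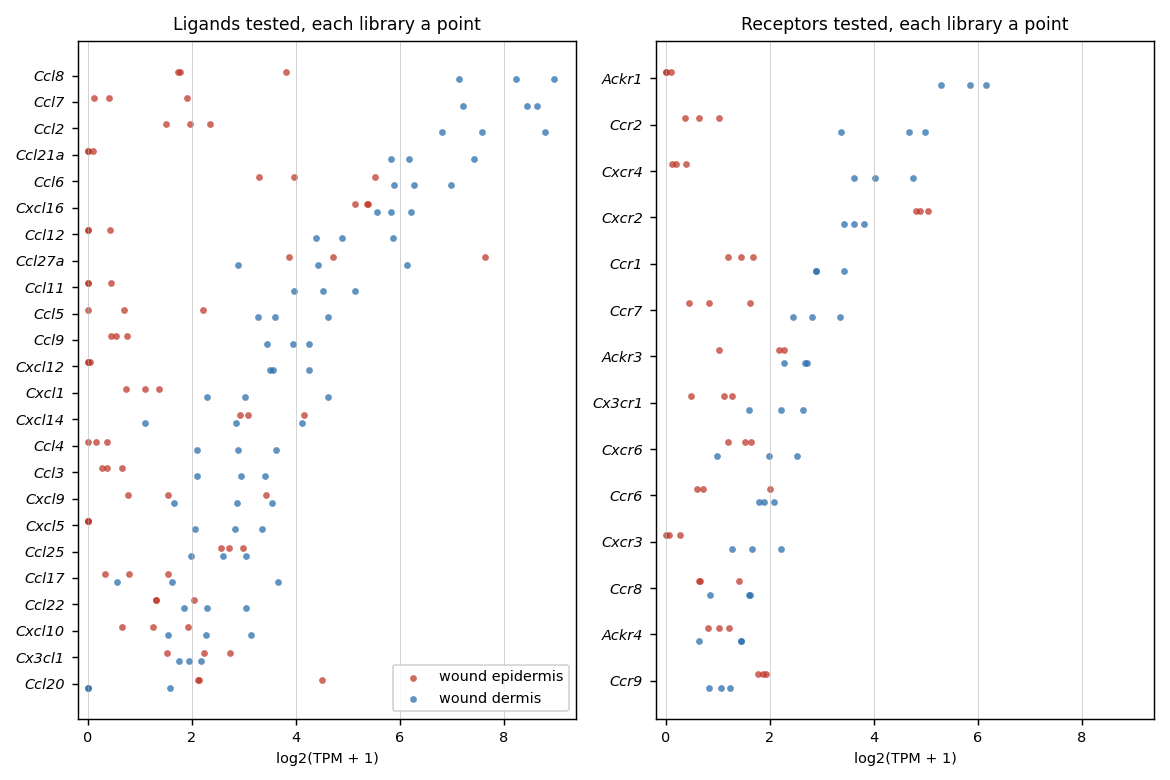
Level of the tested genes in every library, except 1 that is not reported here, as log2(TPM + 1), with ligands on the left and receptors on the right, ordered by their dermis mean; red points are wound epidermis (n = 3) and blue points wound dermis (n = 3). Ccl8, Ccl7, Ccl2 and Ccl21a lie far to the right in dermis alone, while Cxcr2 is the only receptor above 10 TPM whose epidermis points lie to the right of its dermis points.

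The CC ligands Ccl8, Ccl7 and Ccl2 were the most abundant chemokine transcripts in the wound dermis. Their epidermis means were 1.89%, 0.353% and 1.18% of their dermis means. They were the only 3 of the 59 genes with a dermis mean of at least 100 TPM. Together they made up 56.9% to 75.6% of the summed ligand TPM in the dermis libraries and 3.79% to 6.05% in the epidermis libraries. Ccl7, a ligand of CCR2, stood at 347, 148 and 401 TPM in dermis replicates 1 to 3 and at 0.32, 0.09 and 2.75 TPM in epidermis replicates 1 to 3. The groups were far apart, and the epidermis mean was 0.353% of the dermis mean (log2 fold change -7.29 ± 0.56, SE, n = 3 each, limma adjusted p = 6.34e-05).

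Ccl2, the main attractant of CCR2-bearing monocytes, stood at 444, 112 and 191 TPM in dermis and at 2.88, 1.82 and 4.11 TPM in epidermis. It was 5.80 lower on the log2 scale (SE 0.50, limma adjusted p = 1.07e-04). Dermis replicate 1 held the highest level, and the lowest dermis library still lay far above every epidermis library. Ccl8, which in mouse acts through CCR8, stood at 301, 139 and 501 TPM in dermis and at 2.43, 2.34 and 13.04 TPM in epidermis. Its log2 fold change was -5.67 ± 0.67 (SE, limma adjusted p = 4.71e-04), or -6.36 without wound epidermis replicate 3, the library with the highest epidermal level. Ccl12, a further ligand of mouse CCR2, was at 28.7, 20.0 and 57.5 TPM in dermis, and at 0 TPM in epidermis replicates 1 and 2 and 0.34 TPM in replicate 3 (log2 fold change -4.91, limma adjusted p = 6.98e-05).

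The other inflammatory CC ligands, which attract monocytes, macrophages and activated lymphocytes, were lower in epidermis too, but from lower dermis levels. Ccl9 had dermis levels of 14.3, 9.92 and 18.2 TPM and epidermis levels of 0.35 to 0.69 TPM (log2 fold change -3.31, limma adjusted p = 6.86e-05). Ccl3 and Ccl4, which lie next to each other on chromosome 11, ranged from 3.29 to 9.59 and from 3.29 to 11.2 TPM in dermis. In epidermis neither exceeded 0.58 TPM, and their log2 fold changes were -2.39 and -2.70 (limma adjusted p = 0.00113 and 9.83e-04). Ccl5, a T cell product and attractant, stood at 8.71, 11.2 and 23.7 TPM in dermis and at 0.61, 0 and 3.65 TPM in epidermis. The fold change of Ccl5 was -2.87 on the log2 scale (limma adjusted p = 0.00581), and -3.49 without wound epidermis replicate 3.

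Ccl6, a ligand of mouse CCR1, kept the highest level in epidermis of this group. It was at 76.3, 58.7 and 126 TPM in dermis and at 45.3, 14.6 and 8.74 TPM in epidermis, so the epidermis mean was 26.4% of the dermis mean. The groups did not overlap (log2 fold change -2.13 ± 0.58, SE, limma adjusted p = 0.0168). The epidermis libraries spread widely, and without epidermis replicate 1 the log2 fold change was -2.76. Ccl6 missed the threshold without epidermis replicate 2 (adjusted p = 0.0567) or dermis replicate 3 (adjusted p = 0.0602). All 9 genes of the monocyte and lymphocyte attractant group were thus lower in epidermis, with a median of -3.31. Over all tested genes 39.3% were lower, and the median was -0.42. Ccl3, Ccl4, Ccl9 and Ccl12 reached 1 TPM in dermis alone and so had to differ to be tested. The count and median of the group are therefore a description only.

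Ccl11, or eotaxin, attracts eosinophils through CCR3. It stood at 22.0, 14.5 and 34.0 TPM in dermis, was listed at 0 in epidermis replicates 1 and 2 and reached 0.36 TPM in replicate 3 (log2 fold change -4.39, limma adjusted p = 5.58e-05). Its receptor Ccr3 peaked at 0.57 TPM, in dermis replicate 1, and was not tested. Ccl24, another CCR3 ligand, peaked at 1.06 TPM in dermis replicate 3, and Ccl26 was listed at 0 in all 6 libraries.

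Several of these ligand genes lie side by side. Ccl2, Ccl7, Ccl11, Ccl12 and Ccl8 lie in that order within a stretch of chromosome 11 that also holds Ccl1 (82035571 to 82305690, mm10), and all 5 tested genes were lower in epidermis, with a median of -5.67. Ccl5, Ccl9, Ccl6, Ccl3 and Ccl4 follow at 83525778 to 83664683, and all 5 were lower, with a median of -2.70. Over all tested genes 39.3% were lower, and a relation of position to level was not tested. Of these neighbours Ccl11, Ccl12, Ccl9, Ccl3 and Ccl4 reached 1 TPM in dermis alone and so had to differ to be tested. On chromosome 5 the tested neighbours Cxcl5 and Cxcl1 were both lower, and Cxcl9 and Cxcl10 both did not pass. Among receptor genes that lie together on chromosome 9, Ccr9 was higher, Ccr1 and Ccr2 were lower, and Cxcr6 did not pass. The 3 genes from Ccl22 to Ccl17 on chromosome 8 all missed the threshold.

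**Figure D2:**
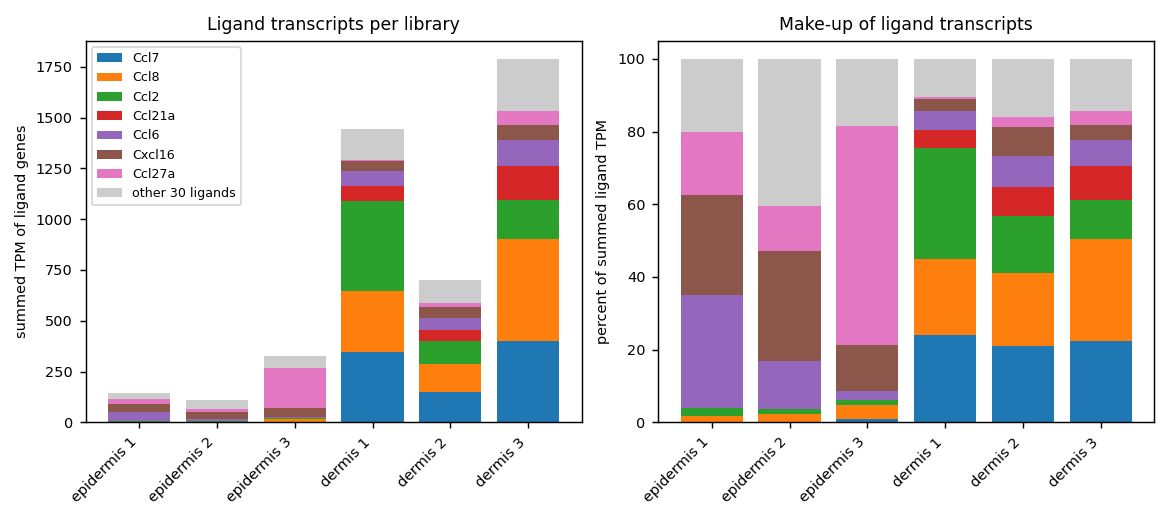
Summed TPM of the 37 ligand genes in each library (left) and the percent of that sum from each gene (right); colours mark 7 ligands and grey the other 30. Ccl2, Ccl7 and Ccl8 fill most of the dermis bars, and Ccl6, Cxcl16 and Ccl27a fill 55.7% to 76.0% of the epidermis bars.

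The 2 tested neutrophil attractants were lower in epidermis, and their receptor was higher there while also present in dermis. Cxcl5, which binds CXCR2, was listed at 0 in all 3 epidermis libraries and stood at 6.08, 3.19 and 9.19 TPM in dermis (limma adjusted p = 4.48e-04). Cxcl1, also a CXCR2 ligand, stood at 23.6, 3.91 and 7.16 TPM in dermis and at 0.66, 1.58 and 1.15 TPM in epidermis (log2 fold change -2.25 ± 0.56, SE, limma adjusted p = 0.0118). Dermis replicate 1 was the highest for Cxcl1, and without it the log2 fold change was -1.60 (adjusted p = 0.0107). Cxcl1 missed the threshold under quantile normalization, at -1.56 (adjusted p = 0.0722). It also missed it when no filter was applied (adjusted p = 0.106). Cxcl2, Cxcl3 and Cxcl15 were below the filter, and the highest value among them was 3.05 TPM, for Cxcl2 in dermis replicate 1.

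Cxcr2, the receptor for these ligands and best known on neutrophils, was higher in epidermis. It stood at 27.0, 31.9 and 28.8 TPM in epidermis and at 9.80, 11.2 and 13.01 TPM in dermis. Every epidermis library lay above every dermis library (29.2 ± 2.5 against 11.3 ± 1.6 TPM, SD, n = 3 each; log2 fold change 1.30 ± 0.19, SE, limma adjusted p = 0.00139). The log2 fold change ranged from 1.21 to 1.74 over the alternative settings listed in the processing summary and passed the threshold in each. Cxcr2 lies on chromosome 1 from 74153989 to 74161246. Its neighbour Cxcr1 was listed at 0 in 5 of the 6 libraries.

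Of 3 tested neutrophil markers 2 were higher in epidermis and 1 was lower, against 17.0% and 39.3% of all tested genes. Csf3r, the G-CSF receptor of neutrophils, stood at 0.14, 0.05 and 0.03 TPM in epidermis and at 8.69, 5.49 and 11.5 TPM in dermis. It reached 1 TPM in dermis alone and so had to differ to be tested. Of the 12 neutrophil markers, Ly6g and Elane were listed at 0 in all 6 libraries and Retnlg in all 3 epidermis libraries. The sum of the list was 187 to 259 TPM in epidermis and 22.1 to 87.7 TPM in dermis, and in epidermis nearly all of it came from S100a8 and S100a9, which activated keratinocytes also express. Those 2 genes were higher in epidermis by 2.65 and 2.66 on the log2 scale, and Csf3r was lower by 3.11 (limma adjusted p = 1.05e-04). Which cells carried the Cxcr2 transcript was not tested.

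**Figure D3:**
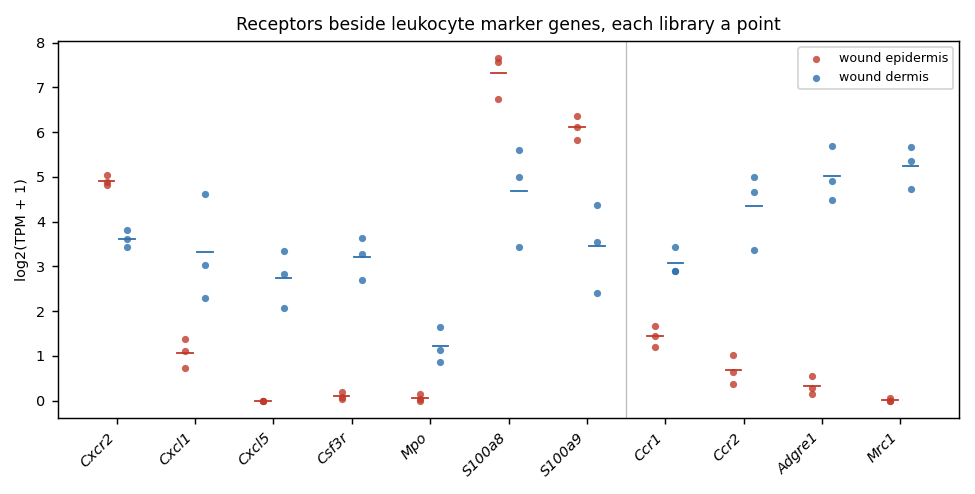
Levels as log2(TPM + 1) of Cxcr2 with its ligands and neutrophil markers (left of the grey line) and of Ccr1 and Ccr2 with macrophage markers (right); points are libraries and short lines the group means on that scale. Cxcr2, S100a8 and S100a9 sit higher in epidermis, and Cxcl1, Cxcl5, Csf3r and Mpo, which was not tested, sit lower there. Ccr1, Ccr2, Adgre1 and Mrc1 are lower in epidermis.

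Ccr2 and Ccr1, receptors of inflammatory CC ligands, were lower in epidermis as well. Ccr8, through which Ccl8 acts in mouse, did not pass (log2 fold change -0.45, limma adjusted p = 0.245). Ccr2, which draws blood monocytes toward Ccl2, Ccl7 and Ccl12, stood at 30.8, 9.29 and 24.4 TPM in dermis and at 0.55, 0.29 and 1.03 TPM in epidermis (log2 fold change -3.67 ± 0.44, SE, limma adjusted p = 4.82e-04). Ccr1 stood at 6.41, 6.40 and 9.80 TPM in dermis and at 2.17, 1.72 and 1.28 TPM in epidermis (log2 fold change -1.64, limma adjusted p = 0.00134). Neither gene overlapped between the tissues, and dermis replicate 2 was the lowest dermis library for Ccr2, while for Ccr1 it was level with replicate 1. Cx3cr1, the fractalkine receptor of monocytes and tissue macrophages, was lower, with a log2 fold change of -1.198 (limma adjusted p = 0.0182), at 2.04 to 5.24 TPM in dermis and 0.39 to 1.41 TPM in epidermis. That call was lost without epidermis replicate 1 (adjusted p = 0.0652), dermis replicate 1 (0.0544) or dermis replicate 3 (0.0524), and under median-of-ratios scaling (0.0629) and quantile normalization (0.381).

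All 13 macrophage and monocyte markers were lower in epidermis, with summed levels of 70.0 to 81.3 TPM in epidermis and 1451 to 2685 TPM in dermis. Among them Mrc1 reached at most 0.04 TPM in epidermis and Adgre1 0.47 TPM, while Cd68 remained at 44.4 to 68.5 TPM. Adgre1, Itgam, Mrc1, Cd163, Ly6c2 and Fcgr1 reached 1 TPM in dermis alone and so had to differ to be tested. Over all tested genes 39.3% were lower, and the count of markers is a description only. The part that macrophage content had in the ligand and receptor levels was not tested.

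Stromal and lymphatic ligands were close to absent in the epidermis. Ccl21a, made by lymphatic endothelium to guide CCR7-bearing dendritic cells, stood at 71.1, 55.8 and 171 TPM in dermis, with 0.07 TPM in epidermis replicate 1 and 0 in the other two (log2 fold change -6.44 ± 0.40, SE, limma adjusted p = 2.72e-05). Cxcl12, the stromal ligand of CXCR4, stood at 10.8, 10.3 and 18.0 TPM in dermis and did not exceed 0.02 TPM in epidermis (log2 fold change -3.76, limma adjusted p = 3.29e-05). Both genes were highest in dermis replicate 3. Levels of Ccl21a are uncertain, because 74.5% of the 43-base words in its transcripts also occur in near-identical genes, and 43 bases is the shorter of the read lengths used. Summed with the 4 genes that share at least 20% of its words, the level was 107, 84.3 and 268 TPM in dermis and at most 0.83 TPM in epidermis. Ccl19, the other CCR7 ligand, and Cxcl13, the CXCR5 ligand, were below the filter, with highest levels of 1.95 and 0.12 TPM, both in dermis replicate 3. The level of Ccl19 is uncertain too, because 54.0% of its 43-base words also occur in Gm2564. That gene stood at 1.74, 0 and 5.26 TPM in dermis and at 0 in epidermis.

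The matching receptors were also lower in epidermis. Cxcr4, carried by many leukocytes and by endothelial cells, stood at 25.9, 15.3 and 11.2 TPM in dermis and at 0.14, 0.08 and 0.30 TPM in epidermis (log2 fold change -3.90 ± 0.31, SE, limma adjusted p = 7.35e-05). Here dermis replicate 1 was the highest and replicate 3 the lowest, unlike most genes of the family. Ccr7, which takes dendritic cells and T cells to lymph nodes, stood at 6.04, 4.47 and 9.12 TPM in dermis and at 0.77, 0.35 and 2.08 TPM in epidermis (log2 fold change -1.91, limma adjusted p = 0.00400). Cxcr3, the receptor for the interferon-induced ligands on effector T cells, stood at 1.41, 2.14 and 3.62 TPM in dermis and at most 0.21 TPM in epidermis (log2 fold change -1.60, limma adjusted p = 0.00201).

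Of its ligands, Cxcl9 did not differ detectably, at 2.13, 6.33 and 10.7 TPM in dermis and 1.92, 0.70 and 9.72 TPM in epidermis (log2 fold change -0.78, 95% interval -2.53 to 0.97, limma adjusted p = 0.401). Epidermis replicate 3 stood far above the other two for Cxcl9. Of 9 tested T and NK cell markers 3 were lower in epidermis, against 39.3% of all tested genes, and 6 did not pass. The summed list stood at 22.5 to 57.4 TPM in epidermis, highest in replicate 3, and at 60.8 to 92.3 TPM in dermis. Cd3d, Cd3e and Cd3g were among those that did not pass. Of the lower markers, Cd4 reached 1 TPM in dermis alone and so had to differ to be tested.

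Ackr1, the atypical receptor of venular endothelium that binds many inflammatory chemokines, was lower in epidermis. The gene reached 1 TPM in dermis alone and so had to differ to be tested. It stood at 38.2, 56.8 and 70.8 TPM in dermis, with 0 in epidermis replicates 1 and 2 and 0.07 TPM in replicate 3 (log2 fold change -5.74 ± 0.26, SE, limma adjusted p = 1.17e-05). All 10 tested endothelial and lymphatic markers were lower in epidermis, among them Cldn5 at -6.21. Of these, all but Pecam1, Vwf and Pdpn reached 1 TPM in dermis alone and so had to differ to be tested. Over all tested genes 39.3% were lower. Prox1, the lymphatic transcription factor, was not tested. It was listed at 0 in all 3 epidermis libraries and stood at only 0.35, 0.46 and 0.69 TPM in dermis. Ackr1 shares 25.7% of its exonic bases with Cadm3 on the same strand, and Cadm3 itself did not exceed 0.77 TPM. Ackr2, which clears inflammatory CC ligands, was below the filter with a highest level of 1.03 TPM, and Ackr3 and Ackr4 did not pass the test.

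**Figure D4:**
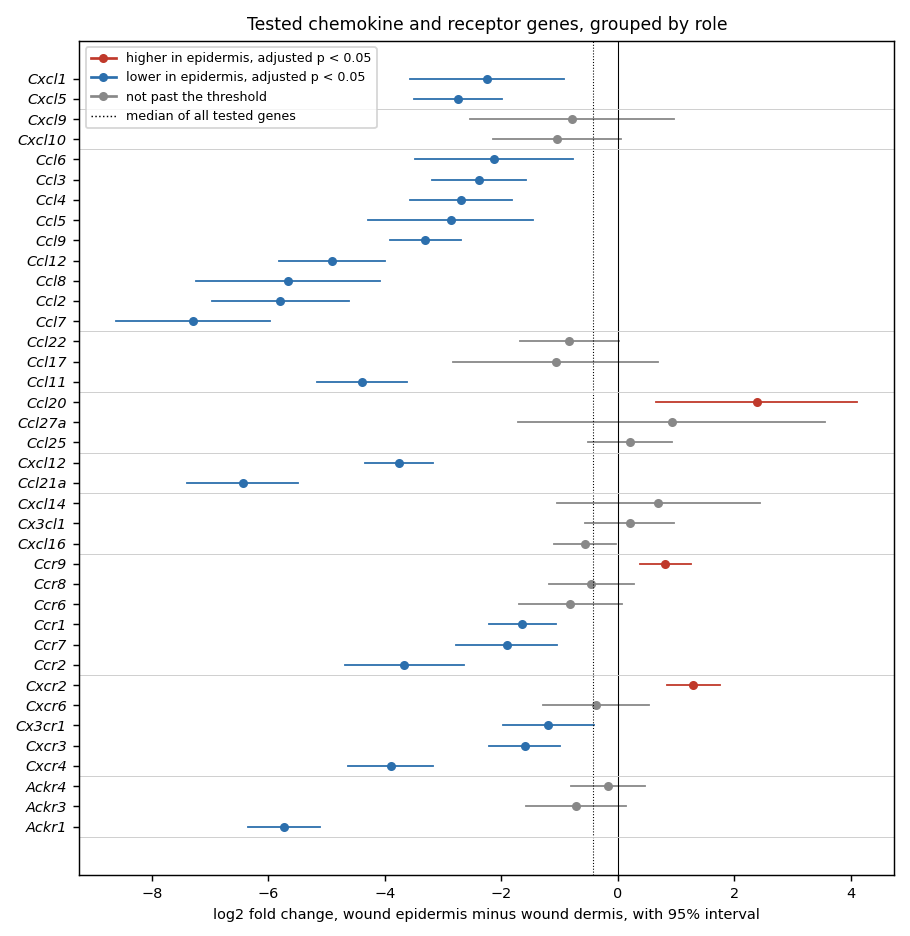
Log2 fold change of the tested genes, except 1 that is not reported here, wound epidermis minus wound dermis, with its 95% interval from the limma fit, grouped by role with grey lines between groups; red is higher in epidermis, blue lower and grey not past the threshold, and the dotted line is the median of all tested genes at -0.42. Cxcr2, Ccr9 and Ccl20 are the red genes; the fitted value of Cxcl5, which is listed at 0 in epidermis, depends on the pseudocount.

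Not all ligands followed the dermal pattern: of 24 tested, 14 were lower in epidermis, 1 was higher and 9 did not pass. Cxcl16, a membrane-bound ligand of CXCR6 that is shed by the protease ADAM10, was abundant in both tissues. It stood at 40.3, 34.3 and 41.0 TPM in epidermis and at 46.2, 55.6 and 73.0 TPM in dermis. The groups did not overlap, but the log2 fold change of -0.56 missed the threshold (95% interval -1.10 to -0.03, limma adjusted p = 0.0667), and it lay near the median of all genes. Without dermis replicate 1 it was -0.72 (adjusted p = 0.0469). Cxcl16 overlaps Zmynd15 on the opposite strand over 18.3% of its exonic bases, and Zmynd15 did not exceed 2.83 TPM. Its receptor Cxcr6 did not pass, at 1.29 to 2.09 TPM in epidermis and 0.98 to 4.70 TPM in dermis (adjusted p = 0.430; 0.0497 without dermis replicate 1).

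The keratinocyte-associated ligands varied widely between libraries, and of them only Ccl20 passed the test. Ccl20, which epithelia make to attract CCR6-bearing dendritic and T cells, stood at 3.31, 21.7 and 3.40 TPM in epidermis. In dermis it was at 2 TPM in replicate 2 and listed at 0 in the other two. The groups did not overlap (log2 fold change 2.39 ± 0.73, SE, limma adjusted p = 0.0270). Epidermis replicate 2 set its size, since without it the log2 fold change was 1.59 (adjusted p = 0.0476). The call was lost without dermis replicate 1 (adjusted p = 0.0927) or dermis replicate 3 (adjusted p = 0.0877). The only dermis library above 0 for Ccl20 was the one with the highest keratinocyte markers, and the part of those cells was not tested. Its receptor Ccr6 stood at 0.52, 0.64 and 2.98 TPM in epidermis and at 2.45 to 3.21 TPM in dermis. It missed the threshold (log2 fold change -0.81, adjusted p = 0.104), but passed without epidermis replicate 3, at -1.26 (adjusted p = 0.00479).

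Ccl27a, the keratinocyte ligand that draws CCR10-bearing T cells to skin, stood at 25.2, 13.7 and 199 TPM in epidermis and at 6.39, 20.6 and 69.3 TPM in dermis. Replicate 3 was the highest in both tissues, the groups overlapped and the test did not pass (log2 fold change 0.92, 95% interval -1.71 to 3.56, limma adjusted p = 0.506). Ccl27a also shares 48.7% of its 43-base words with other genes. Summed with the 2 genes that share at least 20% of its words, it stood at 29.8, 15.3 and 275 TPM in epidermis and at 6.67, 23.2 and 85.6 TPM in dermis. Ccr10 did not exceed 0.21 TPM anywhere.

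Cxcl14, an epithelial ligand, showed the same order of libraries within dermis as Ccl27a. It stood at 7.44, 6.63 and 16.9 TPM in epidermis and at 1.15, 6.20 and 16.4 TPM in dermis (log2 fold change 0.70, 95% interval -1.04 to 2.44, limma adjusted p = 0.446). Ccl25, the CCR9 ligand of thymus and gut, was nearly level, at 4.88 to 6.88 TPM in epidermis and 2.94 to 7.26 TPM in dermis (limma adjusted p = 0.583 for a log2 fold change of 0.21). Its receptor Ccr9 was higher in epidermis, at 2.41, 2.81 and 2.64 TPM against 0.78, 1.34 and 1.09 TPM (log2 fold change 0.81 ± 0.19, SE, limma adjusted p = 0.00817). Reads over 18.8% of the exonic bases of Ccr9 cannot be assigned to a strand, because an opposite-strand gene overlaps them. That gene, AC165425.1, did not exceed 0.16 TPM. Slc6a20a, also on the opposite strand, overlaps 0.2% of the bases. It stood at 16.1 to 24.4 TPM in epidermis and 0.11 to 5.75 TPM in dermis. A same-strand transcript, Gm17200, which overlaps 2.6% of the exonic bases of Ccr9, stood at 5.29 to 6.63 TPM in epidermis and 0.89 to 2.89 TPM in dermis.

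The remaining tested genes, Ccl17, Ccl22, Cxcl10, Cx3cl1, Ccr8, Ackr3 and Ackr4, did not pass, with levels between 0.25 and 11.7 TPM. The 20 genes below the filter did not exceed 3.05 TPM in any library. They were Ackr2, Ccl1, Ccl19, Ccl21b, Ccl24, Ccl26, Ccl27b, Ccl28, Ccr3, Ccr4, Ccr10, Cxcl2, Cxcl3, Cxcl13, Cxcl15, Cxcl17, Cxcr1, Cxcr5, Xcl1 and Xcr1. Every word of Ccl21b and 99.7% of those of Ccl27b occur in other genes, so their low levels cannot be taken as their own.

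Among the 21 genes that were lower in epidermis, dermis replicate 3 was the highest dermis library for 17 and replicate 2 the lowest for 17. In epidermis, 20 of the 21 were above 0 in at least 1 library, and replicate 3 was the highest for 11 of them, replicate 1 for 6 and replicate 2 for 3. The fibroblast marker sum was also highest in epidermis replicate 3 and lowest in dermis replicate 2. Within dermis it was highest in replicate 1, at 71070 TPM against 70340 TPM in replicate 3. Summed macrophage and monocyte markers stood at 2198, 1451 and 2685 TPM in dermis replicates 1 to 3. Dendritic and Langerhans cell markers stood at 5142, 4228 and 8210 TPM, and mast cell markers at 316, 179 and 565 TPM. The keratinocyte sum was highest in dermis replicate 2 and lowest in replicate 3. The part of cell make-up was not tested. The part of RNA from the other tissue was not tested.

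Genes around the chemokine system were read from lists of upstream cytokines, their receptors, downstream signalling and chemokine-binding proteins. Over all tested genes 17.0% were higher in epidermis and 39.3% lower, with a median of -0.42, and the counts per list are a description only. Among 10 tested cytokines known to induce chemokines, 5 were higher in epidermis and 2 lower, with a median of 1.79. Il36a (Il1f6 in the annotation), an epithelial cytokine of the interleukin-1 family, stood at 4477, 5268 and 2387 TPM in epidermis and at 38.5, 501 and 5.97 TPM in dermis (limma adjusted p = 0.00731). Il36g was higher by 4.47 and Il18 by 2.90. Il1b was lower by 1.40 (adjusted p = 0.0363), and Il6 was listed at 0 in all 3 epidermis libraries and at 1.07 to 4.24 TPM in dermis. Tnf, Ifng, Il4, Il10 and Csf2 were below the filter, and Il13, Il17a and Il22 were listed at 0 in all 6 libraries.

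Of 20 receptors for such cytokines 5 were higher and 9 lower in epidermis, with a median of -0.41. Over all tested genes 17.0% were higher and 39.3% lower, with a median of -0.42, so this list was near the background. Il17rc was higher by 1.52 and Il22ra1 by 1.38, while Tnfrsf1b was lower by 2.59 and Il10ra by 2.37.

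Of 24 genes that signal downstream of chemokine receptors 3 were higher in epidermis and 16 lower, with a median of -1.18. Gnai2, the inhibitory G protein subunit of leukocytes, stood at 275, 168 and 226 TPM in dermis and at 34.6, 31.2 and 51.4 TPM in epidermis (log2 fold change -2.49, limma adjusted p = 3.57e-04). Its relative Gnai3 was higher by 0.95 (adjusted p = 0.00801). Of 12 tested genes whose proteins process or hold chemokines, 2 were higher and 7 lower. Beside the counts of both lists, 17.0% of all tested genes were higher and 39.3% lower. Tnfaip6, whose protein binds several chemokines, stood at 96.4, 61.9 and 81.4 TPM in dermis and at most 0.50 TPM in epidermis (log2 fold change -6.07, limma adjusted p = 1.07e-05). The syndecans Sdc1 and Sdc4, heparan sulfate proteoglycans that bind chemokines, were higher in epidermis by 1.98 and 1.13.

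Other leukocyte marker lists stood lower in epidermis. Of 9 tested dendritic and Langerhans cell markers 8 were lower, and Cd207, the Langerhans cell lectin, did not pass (log2 fold change 1.199, limma adjusted p = 0.0732). All 6 tested mast cell markers were lower, with summed levels of 0.36 to 1.45 TPM in epidermis and 179 to 565 TPM in dermis, and Cpa3, Mcpt4, Ms4a2 and Fcer1a were listed at 0 in all epidermis libraries. Of 6 B cell and plasma cell markers 2 were tested, and 1 of them was lower. Over all tested genes 39.3% were lower. Zbtb46, Cd79b and all tested mast cell markers but Kit reached 1 TPM in dermis alone and so had to differ to be tested. The part of these leukocytes in the chemokine levels was not tested.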

How the data were processed

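The deposited values are TPM, which the authors computed for each library; the mouse table's columns matched the labelled samples and had equal totals within rounding. Bowtie 1.0.0, RSEM 1.2.31 and the build mm10 are named per the submitters' processing notes, and the sources used here give neither the gene annotation nor the settings. RSEM divides reads that match several genes among them. Per the labels' protocols, input, amplification cycles and read length differed between libraries, but not which library had which, so no batch could be formed. The rat table was not used here.

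Ensembl identifiers were paired with GENCODE M21 symbols for 49289 of 49548 rows. Il36a, Il36b, Il36g and Adrbk1 were looked up under the annotation's older or newer symbols. The fit used limma 3.58.1 with a mean-variance trend in R 4.3.3 on log2(TPM + 1), over the 6 mouse libraries, and was tested on simulated data. Alternatives were a pseudocount of 0.1, no filter, 2 scalings, a replicate block and leaving out each library with the tested genes held fixed. Shared reads were gauged by 43-base words in GENCODE transcripts.

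The genes, roles and lists were chosen with earlier results of these data known. Named genes were those whose mean reached 5 TPM in either tissue, those past the threshold and the main receptors of named ligands, and from each list up to 3 genes by adjusted p; other genes named, and the ligands whose sequence is shown, were picked after their values were seen. Mouse protein and promoter sequences were not used here. The values of 1 tested gene and of 1 gene list are not reported here; the gene stays in the counts and medians.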

Additional observations from a re-analysis of the deposited data

How the results depend on the processing

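The number of chemokine genes lower in epidermis was 17 to 23 over all alternatives, against 21, and all tested genes called numbered 6581 to 9198, against 8996. The number higher was 3, with 2 to 3 elsewhere, except under quantile normalization, where it was 5, with Ccl25 and Cx3cl1 added. Leaving out 1 library gave 2 to 3 higher genes, 19 to 23 lower genes and 7415 to 8714 called genes. Without the filter, over 49548 genes, Ccl20, Ccl5, Ccl6, Cx3cr1 and Cxcl1 missed the threshold (adjusted p = 0.190, 0.0696, 0.134, 0.119 and 0.106). With a pseudocount of 0.1 no call changed, and fold changes of genes near 0 in epidermis grew, as Ackr1 to -8.81 and Cxcl12 to -6.90. Higher genes made up 30.2% of all called genes, against 47.1% under median-of-ratios scaling and 52.8% under quantile normalization. Among genes that did not pass, the sign changed when a library was left out for Cx3cl1 (without epidermis replicate 3), Ccl25 (range -0.075 to 0.46), Cxcl14 (-0.096 to 1.41) and Ccl27a (-0.19 to 1.75). Under quantile normalization it changed for Ccr8 (0.34), Cxcr6 (0.41), Ackr3 and Ackr4, and under median-of-ratios scaling for Ackr4. The cause was not tested.

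Same-numbered libraries deviated from their group means with correlations across genes of -0.14, 0.09 and 0.19. Differently numbered libraries ranged from -0.20 to 0.12. With 3 libraries per group these values cannot decide whether same-numbered libraries come from the same mouse. With the replicate block 22 chemokine genes were lower, with Ccl22 added, 3 were higher and 8404 genes were called. The number of reads is unknown, so levels near 0 cannot be given a limit.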
